A study of Mus musculus with 10 samples.

Results

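These are 129 mouse genes that were lost between day 3 and day 6 of a course from embryonic stem cells towards neuromesodermal progenitors, and that stood higher again after 24 h of Gdf11. They were chosen from 52459 gene symbols by measured levels, in CPM, which is a gene's count as a share of its library's total, scaled to 1e+06. The group mean on day 3 had to reach 2 CPM and 2 times the mean on day 6, and the mean with Gdf11 on day 7 had to reach 2 times the mean without it while staying under 4 times the mean on day 3. The ratios held for 139 genes, of which 10 were set aside by name, 9 of them collagens and 1 a clone name. Of the 1617 symbols lost after day 3 by the first limits (outside the excluded names), the 129 were 7.98%. A further 4 exceeded 4 times their day 3 level, and the other 1484 were not regained and served as a comparison set.

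Gdf11 is a secreted ligand of the Tgf-β superfamily. Like activin and Nodal it signals through type I and type II receptor kinases to Smad2 and Smad3, which enter the nucleus with Smad4, and follistatin binds it outside the cell. In the embryo Gdf11 acts in the tail bud, where neuromesodermal progenitors supply spinal cord and trunk mesoderm, and mice without it keep trunk identity too far towards the tail. Tgf-β signalling is also known, in many cell types, for raising actin and extracellular matrix genes.

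The cells were wild-type C57BL/6 stem cells of the ES-Bruce4 line, kept on embryo fibroblasts that were depleted 1 time before the start. Bulk RNA was taken on day 2 (D2), day 3 (D3), day 6 (D6), day 7 with Gdf11 (D7G) and day 7 without it (D7), with n = 2 libraries each. All groups had human basic Fgf at 10 ng/ml from day 0, the Gsk3 inhibitor CHIR99021 at 5 µM was added on day 2, cells were split on day 3, and D7G cells had human Gdf11 at 50 ng/ml from day 6 for 24 h. Whether the 2 libraries of a group came from separate cultures is not stated, nor which samples had vitamin A in the medium. The p values therefore reflect library-to-library spread that could be technical in origin.

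Libraries held 31078950 to 33418015 counts, and replicates correlated at 0.995 or more. All 129 genes passed the filter on low counts and were among 18818 genes tested with edgeR's quasi-likelihood test. A gene was called at a Benjamini-Hochberg adjusted p under 0.05 over all genes. Progenitor markers were compared with the labels. T averaged 0.899 CPM on D2, 239 on D3, 40.9 on D6, 29.4 in D7G and 19.8 in D7. Cdx2 averaged 0.578, 159, 109, 25.1 and 42.0 CPM in the same order, but Wnt3a 0.0964, 20.3, 0.585, 0.313 and 0.528 CPM. All 8 progenitor markers summed to means of 167 CPM on D2, 1119 on D3, 580 on D6, 345 in D7G and 405 in D7. In D7G against D7, 2 of the 8 rose and 4 fell (22.5 and 18.2% of all tested genes). A smaller share of expressing cells and less RNA per cell cannot be told apart in bulk RNA, and this holds for each value given here.

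D6 against D3 and D7G against D7 chose the genes, and the ratio of D7G to D3 was capped, so these values describe the set and were not tested. The day 3 mean was 2.00 to 68.5 times the day 6 mean, with a median of 4.17. The D7G mean was 2.00 to 49.7 times the D7 mean, with a median of 2.53. The level reached with Gdf11 was 3.44 to 337% of the day 3 level, with a median of 92.2% and quartiles of 52.6 and 133%. Thus the return was uneven: 57 genes stood above their day 3 mean, 98 at 50% of it or more, and 12 under 25% of it. The highest group mean was that of D2 for 19 genes, D3 for 61 and D7G for 49, and D6 or D7 for 0 of 129, which the limits exclude by their construction.

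**Figure D1:**
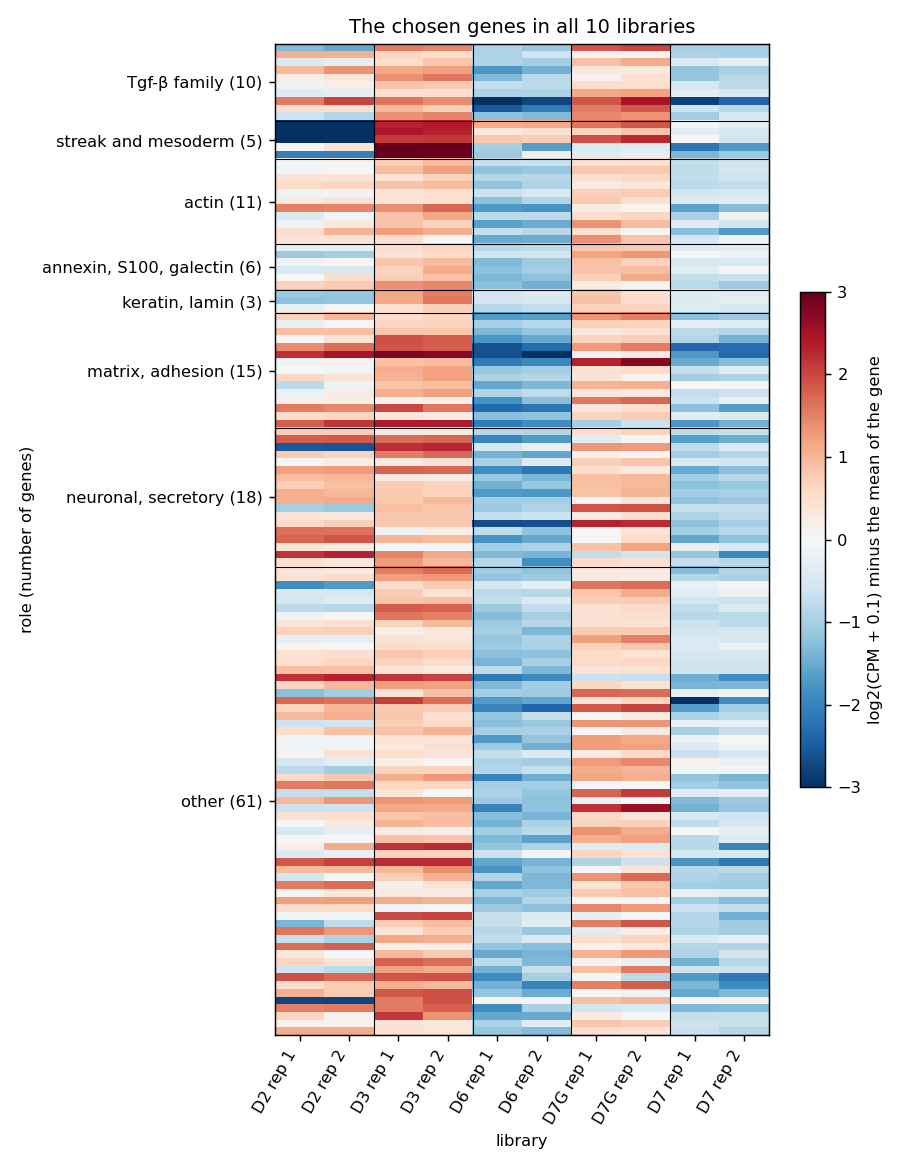
Level of each of the 129 genes (rows, grouped by role) in each of the 10 libraries (columns, D2, D3, D6, D7G and D7), as log2(CPM + 0.1) minus the gene's mean over the libraries. D3 stands above D6, and D7G above D7, by the choice of genes, while D2 varies, being the highest group for 19 of 129 genes.

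The limits fell among close values. Ankrd1 (2.11 CPM) and Fam89a (2.13 CPM) lay just inside the level set for D3, with Prokr2 (1.94 CPM) and Gsap (1.91 CPM) just outside. For the ratio of D6 and D3 the nearest genes inside were Cacna1h, at 2.00 times on D3, and Tes, at 2.01, and the nearest outside were Tnik, at 1.996, and Fam217b, at 1.96. With Gdf11, Svopl and Nid1 lay inside at 2.00 times the D7 level, against Tmem140 at 1.998 and Macc1 at 1.995. At the upper limit Ptprv reached 3.37 times and Tnc 3.15 times the D3 level, while Pdzd2 at 4.08 and Ube2ql1 at 4.12 were outside.

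D2 was not used in choosing the genes, so the step from D2 to D3 could be tested, although D3 itself was required to be high. In D3 against D2, 75 of the 129 genes rose (58.1%) and 22 fell (17.1%), where 29.6% of all tested genes were called higher and 28.9% lower. The median log2 fold change was 0.45, against 0.18 for the genes lost and not regained, of which 682 rose (46.0%) and 473 fell (31.9%), and against 0.00 over all tested genes. The median stayed at 0.45 with the genes of 0 to 3 counts on D2 set at their bounds. Libraries did not overlap, with D3 above D2, in 89 of 129 genes, and in 46.6% of all tested genes.

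**Figure D2:**
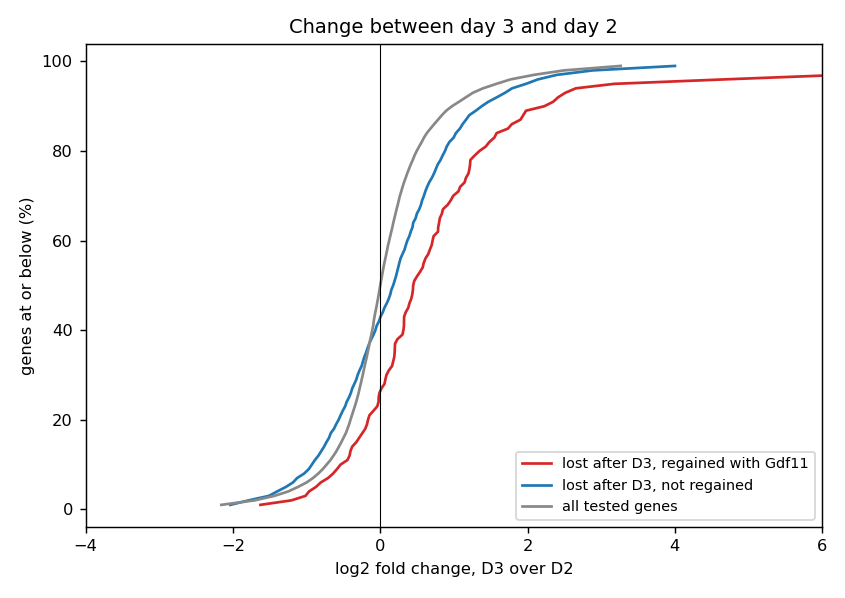
Share of genes (vertical axis, percent) at or below each log2 fold change of D3 over D2 (horizontal axis, drawn up to 6) for the 129 genes, for the 1484 genes lost and not regained, and for all tested genes. The curve of the 129 genes lies to the right of the others at its median of 0.45, against 0.18 and 0.00.

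D6 was required to be low, so its level against D2 is read only beside that of the genes lost and not regained, which met the same limits on D3 and D6. In D6 against D2, which shares the D2 libraries with the comparison above, 106 genes were lower (82.2%, background 35.5%) and 11 higher (background 34.1%), and among the genes lost and not regained the share lower was larger, at 1298 (87.5%). Combining the calls, 52 genes were higher on D3 and lower on D6 than on D2, 22 were lower on both days, 32 were lower on D6 alone, and 12 were higher on D3 and not called on D6. The 11 genes higher on both days were Evx1, Evx1os, Rspo3, Msgn1, Krt8, Krt8-ps, Anxa5, Fst, Gad1, Ngfr and Svopl.

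The rule did not compare D7 with D6, the further day without Gdf11. In D7 against D6, 49 genes rose (38.0%, background 20.5%) and 4 fell (background 15.6%), with a median log2 fold change of 0.33, and among the genes lost and not regained 645 (43.5%) rose. Both D6 and D7 were required to be low, D6 against D3 and D7 against D7G. The size of this change is therefore not compared with those steps. D7 libraries stood above both D6 libraries in 78 of 129 genes, and in 41.5% of all tested genes. The background of 3853 genes called higher dropped to 2294 without replicate 2 of D7, and the 49 to 36. The 4 that fell were Evx1, Evx1os, Rspo3 and Lefty1, and the call of Lefty1 was lost without replicate 2 of D2, D6 or D7 or replicate 1 of D2, and with limma-voom, library-total scaling, no filter or the counts per Ensembl gene (adjusted p between 0.0575 and 0.733 over these).

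The genes were sorted by role after their values had been seen, so counts by role are descriptions, to be read beside those of all 129 genes: 58.1% higher and 17.1% lower in D3 against D2, 82.2% lower in D6 against D2 and 38.0% higher in D7 against D6. Of 10 genes of Tgf-β ligands, inhibitors and known targets, 6 rose and 1 fell in D3 against D2, 8 were lower on D6 than on D2, and 3 rose in D7 against D6, which is close to the shares in the whole set. Their median log2 fold change was -2.49 for D6 over D3 and 1.51 for D7G over D7, against -1.98 and 1.34 for all 129 genes.

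Both activin subunit genes were lower on D6 than on D2. Inhba, which encodes the βA subunit, had 3.78 and 5.24 CPM on D2, 3.93 and 3.41 on D3, 0.0627 and 0.0955 on D6, 4.79 and 7.19 in D7G, and 0.0898 and 0.152 in D7. It was near absent in the D6 and D7 libraries, and both D7G libraries lay above both D3 libraries. Inhbb, for the βB subunit, had 2.21 and 2.19 CPM on D2, 3.17 and 2.58 on D3, 0.188 and 0.287 on D6, 4.67 and 5.85 in D7G, and 0.958 and 0.819 in D7. In D6 against D2, where D6 was low by the choice of genes, Inhba fell by 5.77 ± 0.42 (log2, SE) and Inhbb by 3.20 ± 0.31. The median log2 fold change there was -1.41 for the genes lost and not regained. Neither subunit gene passed the test in D3 against D2 (adjusted p = 0.0997 and 0.17). Without replicate 1 of D2 the fall of Inhba on D3 passed, at an adjusted p of 0.029. Inhbb also rose in D7 against D6 (log2 1.86 ± 0.38, adjusted p = 0.000737). Tgfb1, the ligand that names the family, had 6.82 and 8.06 CPM on D3 against 3.01 and 3.25 on D2, a rise of 1.17 ± 0.16 (log2, adjusted p = 1.99e-06), and its D7G level was 42.7% of that on D3.

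The secreted antagonists split. Fst, encoding follistatin, had 12.1 and 10.3 CPM on D2, 88.4 and 82.5 on D3, 16.1 and 13.8 on D6, 112 and 122 in D7G, and 15.1 in each D7 library. Its D7G libraries lay above its D3 libraries, and D6 and D7 lay a little above D2. The rise in D3 against D2 was 2.85 ± 0.08 (log2, adjusted p = 8.7e-17). Lefty1, an antagonist of Nodal, had 115 and 112 CPM on D2, 84.2 and 74.4 on D3, 27.6 and 35.5 on D6, 57.3 and 57.2 in D7G, and 28.2 and 27.3 in D7. It was highest on D2 and fell by 0.59 ± 0.07 in D3 against D2 (log2, adjusted p = 2.43e-07). The D7G level was 72.2% of that on D3. Nbl1, a Bmp antagonist, and Fstl4, related to follistatin in sequence, rose in D3 against D2 by 0.71 ± 0.13 and 2.31 ± 0.26 (log2, adjusted p = 0.000133 and 2.14e-07).

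Cdkn2b, a cyclin-dependent kinase inhibitor raised by Tgf-β in epithelial cells, and Tgfb1i1, a focal adhesion protein, reached 158 and 127% of their D3 levels in D7G. Both rose in D3 against D2, by 0.79 ± 0.13 and 0.99 ± 0.11 (log2, adjusted p = 2.53e-05 and 2.44e-07).

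**Figure D3:**
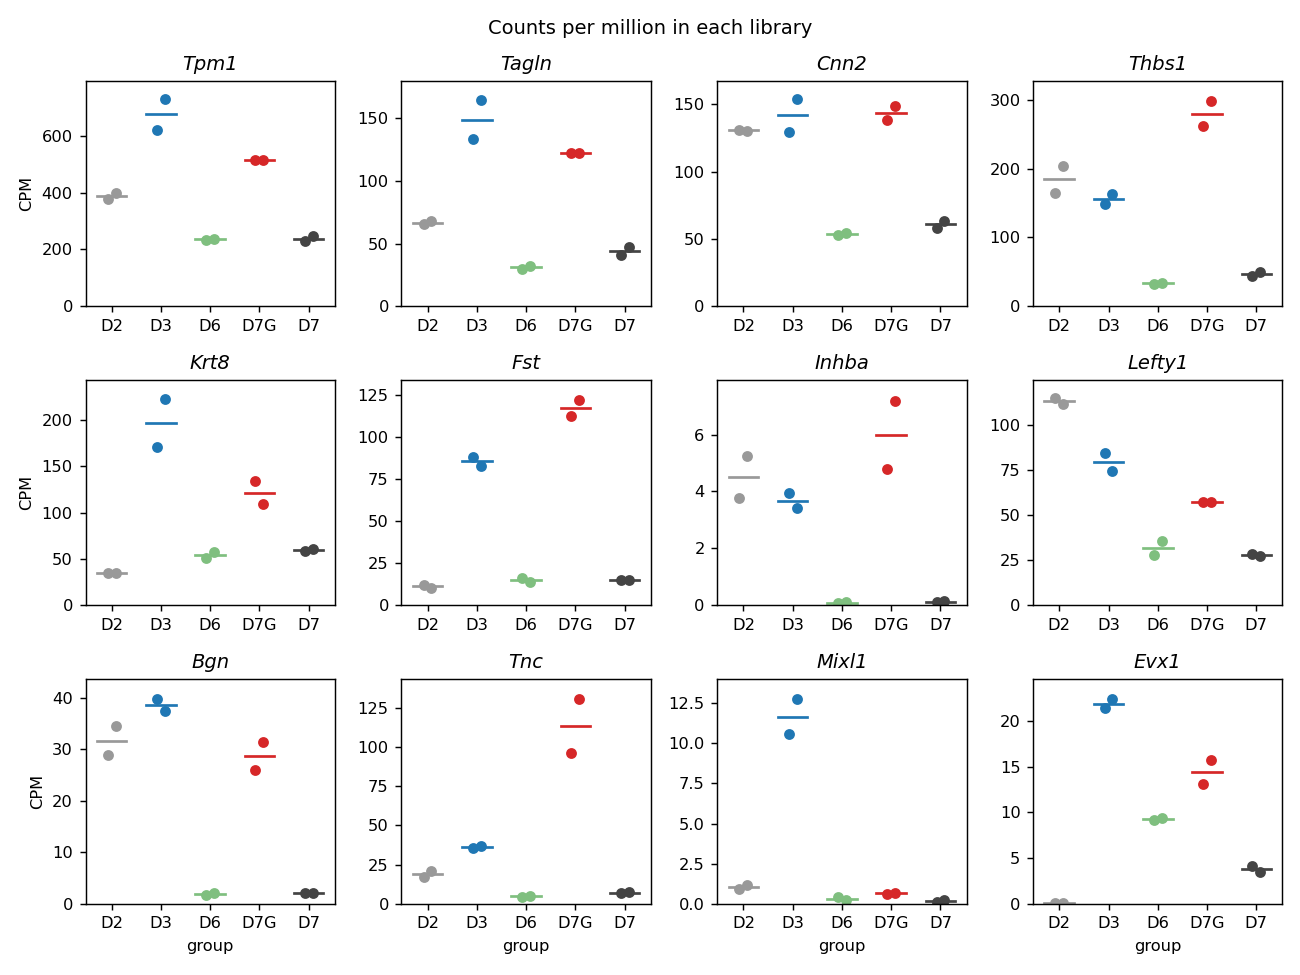
CPM (vertical axis, starting at 0) of 12 of the genes in each library (points) with the group mean (line), for D2, D3, D6, D7G and D7. D3 and D7G lie above D6 and D7 in each panel, and Evx1 and Mixl1 are near 0 or low on D2 while Lefty1 is highest there.

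The 5 genes of the primitive streak and early mesoderm all rose in D3 against D2, and 4 of them were higher on D6 than on D2, Mixl1 being lower. Their return was the least complete of the role groups, with a median log2 fold change of -1.58 for D7G over D3, against -0.07 for all 129 genes. This group counts Evx1 and Evx1os apart. It leaves out Fst (0.50 for D7G over D3), which was sorted with the Tgf-β genes but is on the streak list used further below.

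Msgn1, a transcription factor of presomitic mesoderm, had 0 counts in both D2 libraries and 6.34 and 7.33 CPM on D3, at least 142-fold higher against a floor of 3 counts over the group. It had 0.0940 and 0.382 CPM on D6, 0.221 and 0.249 in D7G, and 0.0598 and 0.0910 in D7, so that D7G held 3.44% of the D3 level and lay between the D6 libraries. Mixl1, a homeobox gene of the streak, had 0.897 and 1.19 CPM on D2, 10.6 and 12.7 on D3, 0.407 and 0.223 on D6, 0.631 and 0.654 in D7G, and 0.120 and 0.212 in D7. It rose by 3.40 ± 0.18 in D3 against D2 (log2, adjusted p = 2.64e-12), and 5.51% of its D3 level was reached in D7G. Both genes met the ratio for regain at levels far under those of D3.

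Evx1, a homeobox gene of the posterior streak, had 0.0320 and 0.0322 CPM on D2, 21.5 and 22.4 on D3, 9.18 and 9.39 on D6, 13.2 and 15.7 in D7G, and 4.16 and 3.49 in D7. D3 exceeded D2 683-fold, with a 95% interval of 189 to 5642 for counting error alone, since D2 held 2 counts in all. The antisense transcript Evx1os overlaps Evx1 and lies at chr6:52308389-52314832 on the minus strand (mm10). It reached 99.2% of its D3 level in D7G against 65.8% for Evx1. How strand was used in counting is not given in the sources used here, so reads of this pair may not be separated. Rspo3, an amplifier of Wnt signalling, had 19.2 and 17.7 CPM on D3 against 0.320 and 0.290 on D2 (log2 5.82 ± 0.18, adjusted p = 4.59e-16). In D7 against D6, Evx1 fell by 1.31 ± 0.12 and Rspo3 by 0.81 ± 0.14 (log2, adjusted p = 1.06e-07 and 0.00015), where 15.6% of all tested genes fell.

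**Figure D4:**
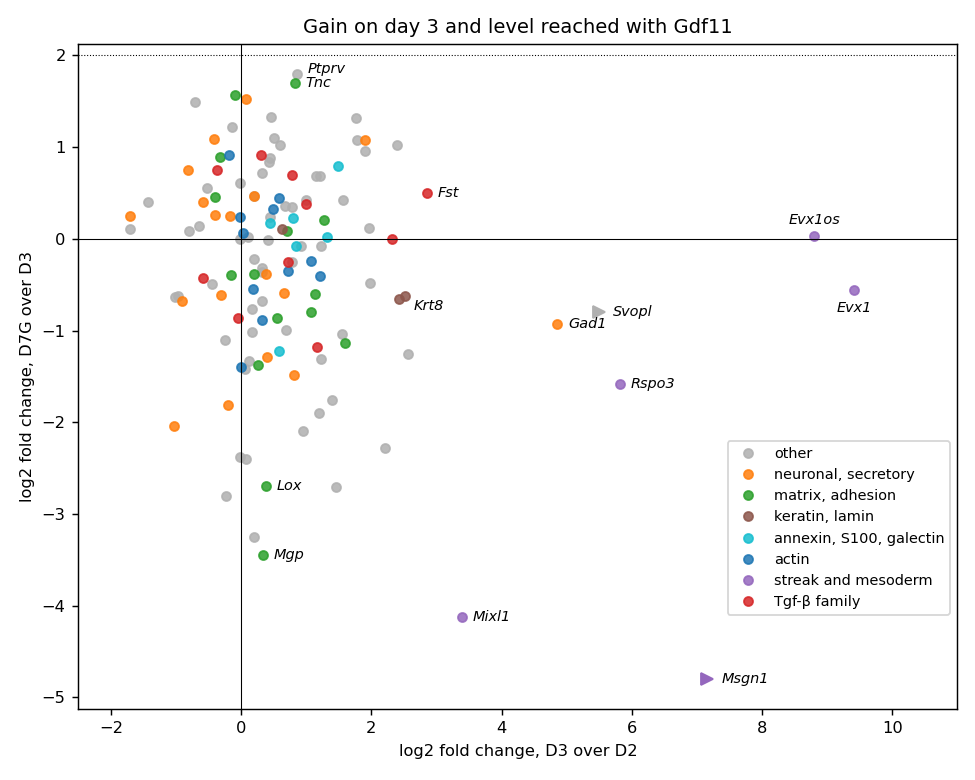
Log2 fold change of D3 over D2 (horizontal axis) against log2 fold change of D7G over D3 (vertical axis) for the 129 genes, coloured by role. Triangles are lower bounds for Msgn1 and Svopl, which had 0 counts on D2, and the dotted line is the upper limit of 4 times D3. Streak genes lie far right with Msgn1 and Mixl1 low, while Tnc and Ptprv lie near the upper limit. The axes share the D3 libraries.

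All 11 actin cytoskeleton genes were lower on D6 than on D2. In D3 against D2, 6 rose and 5 were not called, and in D7 against D6, 5 rose. Tpm1, a tropomyosin that lies along actin filaments, had 378 and 397 CPM on D2, 620 and 729 on D3, 234 and 237 on D6, 515 and 514 in D7G, and 229 and 248 in D7. Tagln, the actin-binding protein transgelin, had 65.8 and 67.9 CPM on D2, 133 and 165 on D3, 30.1 and 31.8 on D6, 123 and 122 in D7G, and 41.1 and 47.5 in D7. For both genes D7G lay below D3 and above D2 without overlap. Tpm1 rose by 0.72 ± 0.05 and Tagln by 1.07 ± 0.07 in D3 against D2 (log2, adjusted p = 5.49e-10 and 9.68e-11).

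The calponins, which bind actin, were not called in D3 against D2. Cnn2 had 131 and 130 CPM on D2, 129 and 154 on D3, 53.2 and 54.2 on D6, 138 and 148 in D7G, and 58.3 and 63.2 in D7. Its D2, D3 and D7G libraries lay close together, and D3 against D2 differed by 0.03 ± 0.06 (log2, adjusted p = 0.642), although without replicate 1 of D3 the difference was called (0.17, adjusted p = 0.0122). Cnn1 reached 36.7% of its D3 level in D7G. Fblim1, which joins filamin to integrin adhesions, rose by 0.19 ± 0.06 in D3 against D2 (log2, adjusted p = 0.0136), a call lost without replicate 1 of D2 or replicate 2 of D3. Ankrd1, a target of Yap, reached 183% of its D3 level in D7G, and the focal adhesion protein gene Tes 122%. Acta1 and Actg2 encode near-identical actins, so reads may be shared between them and other actin genes.

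Promoters of 250 bases before to 50 after the gene start were found in RefSeq (GRCm38.p6) for 82 of the 129 genes. Where a gene had several starts, as 19 of the 129 did, only the first listed was searched. A CArG box, the element bound by serum response factor, lay on either strand in 4 of the 82 promoters (4.88%), against 0.823% of 1094 genes lost and not regained, 1.34% of 12194 tested genes and 1.57% of 27025 promoters. Of the 4, 3 were among the 8 actin cytoskeleton genes with a promoter: Acta1, Cnn2 and Myl9, the last encoding a myosin light chain. The 250 bases before their starts are shown since they hold the box, which the other 5 of the 8 lack in this window, with the CArG box in capitals, 5′ to 3′ on the gene's strand. The boxes begin 73, 56 and 161 bases before the start. Acta1 lies on the minus strand at chr8:123894776-123895025, Cnn2 on the plus strand at chr10:79988350-79988599 and Myl9 on the plus strand at chr2:156775214-156775463.
Acta1: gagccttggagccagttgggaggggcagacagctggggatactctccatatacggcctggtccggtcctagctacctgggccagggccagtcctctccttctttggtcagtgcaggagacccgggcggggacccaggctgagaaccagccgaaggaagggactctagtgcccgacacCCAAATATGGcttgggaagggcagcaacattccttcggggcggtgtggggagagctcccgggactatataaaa
Cnn2: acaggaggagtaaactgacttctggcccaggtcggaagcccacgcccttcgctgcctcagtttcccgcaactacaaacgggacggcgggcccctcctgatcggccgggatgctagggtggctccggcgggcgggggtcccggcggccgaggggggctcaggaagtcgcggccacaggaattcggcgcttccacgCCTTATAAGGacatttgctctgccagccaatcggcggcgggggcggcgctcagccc
Myl9: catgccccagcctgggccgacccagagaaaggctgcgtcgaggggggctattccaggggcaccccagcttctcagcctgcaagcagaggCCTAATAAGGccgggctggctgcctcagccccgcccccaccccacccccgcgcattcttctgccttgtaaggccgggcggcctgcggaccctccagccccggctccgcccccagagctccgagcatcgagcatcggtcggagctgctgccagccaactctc
Such a match is a description of letters in this window. The fourth was Anxa5, with a box 25 bases after its start.

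Other motifs were searched on both strands in the same windows. The AP-1 letters TGANTCA lay in 12.2% of the 82 promoters, against 6.22% for genes lost and not regained, 4.88% of tested genes and 7.93% of all promoters. TATAAA lay in 17.1%, against 8.04, 7.27 and 14.2% in the same sets. The Tead letters GGAATG lay in 15.9%, against 14.6, 12.3 and 14.6%. The Smad letters CAGAC lay in 52.4%, against 50.9, 48.1 and 49.7%, and the Tcf/Lef letters CTTTGAT in 2.44%, against 1.74, 2.48 and 3.72%. Base composition differed too, with a median of 13.5 CpG per promoter in the 82, 16 in genes lost and not regained, 20 in tested genes and 7 in all promoters. Its part in the motif shares was not tested.

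All 6 genes of annexins, S100 proteins and galectins, which bind membranes, calcium or sugars, rose in D3 against D2 and again in D7 against D6, and 5 of the 6 were lower on D6 than on D2. Lgals1, encoding galectin-1, had 79.97 and 80.6 CPM on D2, 142 and 153 on D3, 53.9 and 57.1 on D6, 170 and 166 in D7G, and 73.6 and 76.0 in D7. Anxa5, which binds phosphatidylserine, had 23.4 and 24.6 CPM on D2, 65.6 and 76.3 on D3, 33.5 and 33.8 on D6, 115 and 124 in D7G, and 48.5 and 46.6 in D7. In both genes the D7G libraries lay above all others. In D3 against D2, Lgals1 rose by 0.80 ± 0.04 and Anxa5 by 1.48 ± 0.07 (log2, adjusted p = 3.9e-12 and 2.7e-13), and in D7 against D6 they rose by 0.40 ± 0.05 and 0.47 ± 0.07 (adjusted p = 1.85e-06 and 1.95e-05). S100a6 returned least of the 6, to 41.7% of its D3 level.

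Krt8, a keratin of simple epithelia, had 35.1 and 34.2 CPM on D2, 171 and 223 on D3, 51.0 and 57.4 on D6, 134 and 109 in D7G, and 58.4 and 60.1 in D7. It stayed above D2 in all later groups, and its rise in D3 against D2 was 2.42 ± 0.10 (log2, adjusted p = 6.27e-14). Krt8-ps, a pseudogene copy, followed the same course and may share reads with it. Lmna, encoding the nuclear lamins A and C, reached 104% of its D3 level in D7G.

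The 15 genes of matrix and adhesion were all lower on D6 than on D2, 10 of the 15 rose in D7 against D6, and in D3 against D2, 8 rose and 3 fell. Their D7G levels lay between 8.79 and 315% of those on D3. Thbs1, a matrix glycoprotein that activates latent Tgf-β, had 165 and 204 CPM on D2, 148 and 163 on D3, 32.6 and 33.7 on D6, 262 and 298 in D7G, and 44.6 and 49.5 in D7. Tnc, the matrix protein tenascin C, had 17.3 and 21.1 CPM on D2, 35.3 and 36.6 on D3, 4.35 and 4.97 on D6, 96.1 and 131 in D7G, and 6.64 and 7.76 in D7. In both genes D7G exceeded every other library. Tnc rose in D3 against D2 by 0.83 ± 0.12 (log2, adjusted p = 6.2e-06), whereas Thbs1 fell by 0.33 ± 0.08 (adjusted p = 0.000888), a call lost without replicate 2 of D2 (adjusted p = 0.0738).

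The lysyl oxidases, which cross-link collagen and elastin, went apart in their return. Lox had 23.9 and 29.5 CPM on D2, 37.4 and 35.9 on D3, 0.752 and 0.318 on D6, 4.79 and 6.20 in D7G, and 1.496 and 0.940 in D7. Loxl1 had 5.96 and 6.05 CPM on D2, 5.87 and 5.99 on D3, 1.47 and 2.16 on D6, 16.3 and 17.7 in D7G, and 3.35 and 4.55 in D7. Lox thus reached 15.0% of its D3 level in D7G, Loxl1 287% and Loxl3 133%. In D3 against D2, Lox rose by 0.38 ± 0.10 (log2, adjusted p = 0.00365), a call lost without replicate 1 of D2 (adjusted p = 0.128) and with DESeq2 (0.25), while Loxl1 was not called (adjusted p = 0.557).

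Bgn, the proteoglycan biglycan, had 28.8 and 34.6 CPM on D2, 39.7 and 37.3 on D3, 1.66 and 2.101 on D6, 26.0 and 31.4 in D7G, and 2.00 and 2.12 in D7. Its D6 and D7 libraries were low alike. In D6 against D2, where D6 was low by the choice of genes, Bgn changed by -4.08 ± 0.14 (log2). The median for the genes lost and not regained was -1.41. Postn, encoding periostin, had 41.9 and 39.6 CPM on D3 against 11.2 and 14.3 on D2, and returned to 44.1% of the D3 level. Mgp, an inhibitor of calcification, had 0.315 and 0.436 CPM in D7G, against 0.150 and 0.212 in D7 and 4.25 and 4.30 on D3, which is 8.79% of the D3 level. Nid1, which links laminin and collagen in basement membranes, had 96.2 and 94.2 CPM in D7G, 103% of its D3 level.

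Of 18 genes of neurons and regulated secretion, 6 rose and 9 fell in D3 against D2, where 29.6% of all tested genes rose and 28.9% fell, and 16 were lower on D6 than on D2. Gad1, which makes the transmitter GABA, stood out by its gain, with 1.06 and 0.997 CPM on D2, 30.6 and 32.6 on D3, 4.54 and 5.57 on D6, 16.3 and 16.0 in D7G, and 3.83 and 4.82 in D7. Its rise in D3 against D2 was 4.86 ± 0.13 (log2, adjusted p = 9.9e-17). Tubb4a, a tubulin of neurons and glia, had 15.4 and 15.6 CPM on D2, 4.34 and 5.67 on D3, 2.82 and 2.04 on D6, 5.11 and 6.48 in D7G, and 2.33 and 2.70 in D7. It fell by 1.71 ± 0.13 in D3 against D2 (log2, adjusted p = 8.32e-10). Cntn2, an axonal adhesion molecule, had 17.7 and 16.9 CPM in D7G, against 1.44 and 1.70 in D7, and reached 280% of its D3 level. Unc80, a subunit of a sodium leak channel, had 0.757 and 0.872 CPM in D7G, against 0.539 and 0.273 in D7, and reached 23.5%.

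The other 61 genes had no common role, and 35 rose and 9 fell in D3 against D2. Ngfr, the low-affinity neurotrophin receptor, had 3.91 and 4.44 CPM on D2, 21.4 and 24.9 on D3, 10.2 and 12.0 on D6, 44.9 and 46.8 in D7G, and 12.7 and 14.1 in D7, so that D7G exceeded all other libraries. Ptprv, a receptor-type phosphatase, had 16.7 and 21.5 CPM in D7G, against 3.71 and 4.06 in D7 and 6.40 and 4.94 on D3. Fosl1, a Fos family member of AP-1, had 3.23 and 3.38 CPM on D3 against 0.673 and 0.676 on D2 and returned to 19.9% of the D3 level. Sema4a, a membrane-bound semaphorin, and Irs4, an insulin receptor substrate, fell in D3 against D2 by 1.70 ± 0.13 and 1.01 ± 0.10 (log2, adjusted p = 6.27e-10 and 4.11e-08). Cd34, a surface protein of blood stem cells and vessels, had 1.51 and 2.21 CPM in D7G, 63.0% of its D3 level, and 6.05 and 4.92 CPM on D2, where it was highest. Thy1, a surface protein of fibroblasts and neurons, had 8.43 and 7.68 CPM on D3, 0.345 and 0.414 on D6, 1.14 and 1.09 in D7G, and 0.598 and 0.425 in D7.

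Pairs within 100 kb of one another included the overlapping Evx1os and Evx1, Sema4a with Lmna at 18.965 kb, Mgp with Arhgdib at 47.832 kb and Fam89a with Trim67 at 41.26 kb.

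Other genes of the same pathways, which are not among the 129, were counted in D7G against D7, where 22.5% of all tested genes rose and 18.2% fell. Of 20 other Tgf-β, Activin and Nodal genes, 17 rose and 0 fell. Pmepa1 and Smad7, feedback inhibitors of Smads, rose by 2.24 ± 0.07 and 1.33 ± 0.07 (log2, adjusted p = 6.82e-15 and 9.52e-12), with means of 44.1 and 50.9 CPM in D7G, against 9.31 and 20.2 in D7. On D3 these stood at 10.6 and 17.8 CPM and on D6 at 7.32 and 17.2 CPM. Of 15 other actin genes 11 rose and 1 fell, among them Acta2, smooth muscle actin, by 1.43 ± 0.07 (adjusted p = 2.54e-12). Of 22 other matrix genes 19 rose and 0 fell, Loxl2 by 1.73 ± 0.05 (adjusted p = 4.01e-15) and the proteoglycan gene Lum by 3.75 ± 0.21 (adjusted p = 2.56e-11).

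Epithelial genes rose together with Krt8: 16 of 19 others rose and 0 fell, with a median log2 fold change of 0.53, the adhesion gene Cdh1 by 0.62 ± 0.07 (adjusted p = 5.56e-07). Cdh1 averaged 216 CPM in D7G, against 140 CPM in D7 and 470 CPM on D3. Of 18 other streak genes 10 rose and 3 fell. T rose by 0.56 ± 0.06 (adjusted p = 1.61e-07), whereas Fgf8, Sp8 and Nkx1-2, genes of the caudal progenitor zone, fell by 0.89 ± 0.12, 0.97 ± 0.09 and 0.68 ± 0.06 (log2, adjusted p = 3.6e-06, 2.34e-08 and 2.08e-08). Of 13 Wnt feedback and target genes 8 rose and 2 fell, and of 11 Fgf-Erk feedback genes 7 rose and 2 fell. Of 16 p53 targets 7 rose and 3 fell, and of 10 other immediate early genes 5 rose and 2 fell. Shares of rises above the background were thus not particular to the Tgf-β, actin and matrix lists.

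Markers of other cell types also moved with Gdf11, and their part in the changes of the 129 genes was not tested. The summed level of 11 embryo fibroblast markers was 173 to 191 CPM on D2, 331 to 350 on D3, 354 to 368 on D6, 516 to 531 in D7G and 401 to 423 in D7. Of 9 tested markers 6 rose and 1 fell in D7G against D7, and S100a4 and Dpt had group means under 0.5 CPM throughout. The sum was not lower on D6 than on D3, but its members differed: 4 of 11 had a lower mean on D6 than on D3 and a higher one in D7G than in D7, among them Thbs2, with means of 12.7 CPM on D3, 2.1 on D6, 18.8 in D7G and 10.9 in D7. Pdgfrb averaged 65.7 CPM in D7G, against 30.01 CPM in D7, and Twist2 13.2 CPM in D7G, against 2.68 CPM in D7.

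Several marker sums were lower on D6 than on D3 and higher in D7G than in D7. The 14 pluripotency and epiblast markers summed to 1308 to 1334 CPM on D3, 661 to 807 on D6, 962 to 1088 in D7G and 781 to 797 in D7, and 14 of 14 rose in D7G against D7. The 12 trophoblast and extraembryonic endoderm markers summed to 462 to 529 CPM on D3, 334 to 376 on D6, 547 to 669 in D7G and 438 to 449 in D7. Most of this sum was Lamb1, a laminin gene also counted with the matrix genes, at means of 465, 341, 581 and 425 CPM. Of the 12, 5 had a lower mean on D6 than on D3 and a higher one in D7G than in D7. In D7G against D7, 4 of 9 tested markers were called higher, and Elf5, Tpbpa and Prl3d1 were under 0.5 CPM in all groups. Germ cell markers summed to 180 to 182 CPM on D3, 112 to 126 on D6, 157 to 168 in D7G and 137 to 138 in D7, and 6 of 8 rose. The 16 endoderm and node markers summed to 248 to 250 CPM on D3, 151 to 173 on D6, 206 to 250 in D7G and 154 to 167 in D7, and 8 of 14 rose, with Cer1 and Noto under 0.5 CPM in all groups.

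The sum of 8 neuron markers was 239 to 245 CPM on D2, 145 to 147 on D3, 93.2 to 96.7 on D6, 274 to 282 in D7G and 149 to 152 in D7, and 5 of 8 rose with Gdf11. Its drop on D6 was carried by some of them, as 4 of 8 were lower on D6 than on D3, and Stmn2 averaged 21.0 CPM on D6, against 82.5 CPM on D3.

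The mean sums of the neural crest, endothelial and lateral plate lists were not lower on D6 than on D3. The 9 neural crest markers outside the 129 genes had mean sums of 85.3 CPM on D3, 86.0 on D6, 187 in D7G and 115 in D7. In D7G against D7, 7 of these 9 rose and 0 fell. The 17 endothelial and blood markers summed to 204 to 245 CPM in D7G, against 104 to 105 in D7, and 3 of 14 rose: Flt1, Runx1 and Lmo2. Flt1 averaged 130 CPM, Pecam1 16.0 CPM and Cdh5 0.376 CPM in D7G, against 62.1, 13.5 and 0.422 CPM in D7, and Gata1, Emcn and Hba-x stayed under 0.5 CPM. Lateral plate and hindlimb markers summed to 365 to 390 CPM in D7G, against 122 to 128 in D7, and 7 of 13 rose. Prrx1 averaged 207 CPM, Bmp4 59.2 CPM, Pitx1 45.2 CPM and Tbx2 17.6 CPM in D7G, against 49.1, 17.8, 22.4 and 1.42 CPM in D7, while Wnt2 stayed under 0.5 CPM.

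**Figure D5:**
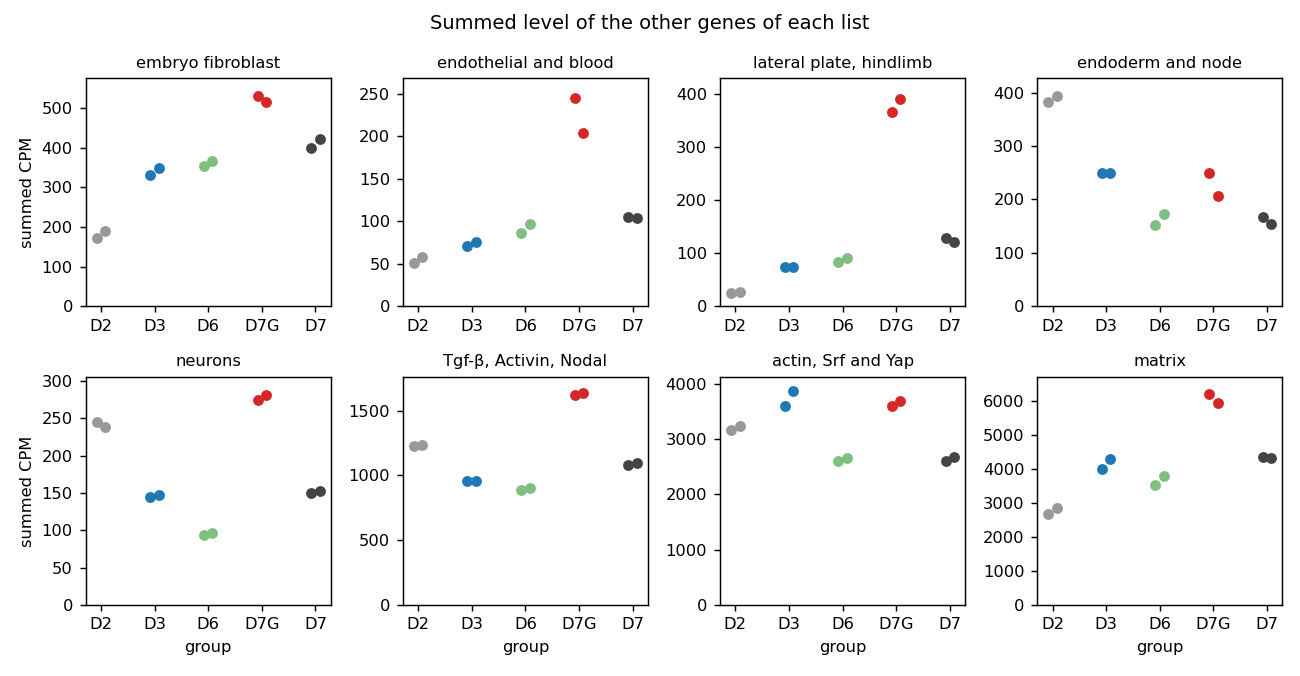
Summed CPM (vertical axis, starting at 0) per library of 8 lists, leaving out the 129 genes, for D2, D3, D6, D7G and D7: embryo fibroblast, endothelial and blood, lateral plate, endoderm and node, neuron, Tgf-β, actin and matrix genes. Each of these 8 sums is higher in both D7G libraries than in both D7 libraries, while fibroblast, endothelial and lateral plate sums were not lower on D6 than on D3. Among lists not drawn, the progenitor sum was lower in D7G (341 and 349 CPM) than in D7 (406 and 404 CPM). The immediate early sums overlapped, at 1311 and 1097 CPM in D7G and 1255 and 1366 CPM in D7.

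The choice was repeated within 1 replicate and read in the other. With replicate 1 alone 189 genes met the limits. In the replicate 2 libraries, 174 of these kept D3 at 2 times D6 or more, 110 kept D7G at 2 times D7 or more, and 100 (52.9%) kept both. With replicate 2 alone 143 genes were chosen, and 96 of these (67.1%) kept both ratios in replicate 1. The direction of both ratios was the same in the other replicate for 174 of 189 and 140 of 143 genes, and the median ratio of D7G to D7 there was 2.18 and 2.37. The same share over all genes was not counted. These counts describe repeatability between libraries, which may not be separate cultures. Most losses of membership came from the Gdf11 ratio slipping under 2.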

How the data were processed

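RNA of 10 libraries in 5 groups was analysed from the deposited counts per gene symbol, raw values that the authors made. The submitters' processing notes name featureCounts 1.6.3, HISAT2 2.1.0, limma and STAR, and the build mm10, while the roles of these tools, the counting options and the use of strand are not given in the sources used here. The authors' deposited table with CPM, log2 fold changes and p-values (14983 genes, all 129 among them) was not tested further, and the deposited counts per Ensembl gene served as an alternative. Members were found with CPM on library totals. Counts were fitted in edgeR 4.0.16 (R 4.3.3) with TMM scaling, filterByExpr, all 10 libraries and 1 coefficient per group, leaving 5 residual degrees of freedom, and 18818 genes were tested. The coefficient of variation between replicates was 3.34%. SE is the log2 fold change divided by the root of F. The fit was tested on simulated data.

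The members and gene lists were chosen with earlier results of these data known. Named genes were up to 4 per list with the highest D3 level, the 8 highest on D3, the 5 largest rises and falls in D3 against D2, the extremes of D7G to D3 and those beside each limit. Some further genes were named for their role after their values were seen. Intervals and floors (3 counts) cover counting error only. Same-numbered libraries did not deviate together (correlations between -0.0418 and 0.0487), so replicate numbers were not used as pairs. Alternatives were DESeq2 1.42.0, limma-voom (limma 3.58.1), other scalings and filters, only the groups compared, a replicate block, other limits and each library left out. The values of 1 member are not reported here.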

Additional observations from a re-analysis of the deposited data

How the results depend on the processing

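The choice of genes depended on its limits: 475 genes were chosen at 1.5 times in both ratios, 39 at 3 times and 85 with D3 at 5 CPM or more, while TMM-scaled CPM gave 121 and the counts per Ensembl gene gave 119, of which 113 were among the 129. Leaving out 1 library gave 127 to 165 genes. In D7 against D6 the genes called higher numbered 2294 to 3607 with 1 library left out, and the lowest value came without replicate 2 of D7. The median log2 fold change of the 129 genes was -2.03 to -1.92 for D6 over D3, 1.31 to 1.35 for D7G over D7 and -0.220 to -0.0724 for D7G over D3, and the cause was not tested. Members called higher in D3 against D2 numbered 65 to 77, and those called lower on D6 than on D2 numbered 101 to 106. Among the named genes no call reversed its direction under any alternative run, while a change of sign in a gene without a call was not counted. Over named genes and settings, 2031 results kept their call, 31 gained it and 33 lost it. With a replicate block, 76 members were higher and 22 lower in D3 against D2, and 52 were higher in D7 against D6; the replicate numbers do not pair the samples. Genes under about 1 CPM, such as Inhba on D6, have few counts and wide intervals.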

Other observations

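The 9 collagen genes set aside by name had met the same ratios. Their course was thus fixed by the choice and adds no separate evidence. Col1a1, a chain of fibrillar collagen, had 46.3 and 58.1 CPM on D2, 104 and 98.6 on D3, 7.11 and 8.91 on D6, 233 and 252 in D7G, and 25.9 and 28.9 in D7. Col1a2, its partner chain, had 51.2 and 65.9 CPM on D2, 113 and 110 on D3, 5.26 and 5.29 on D6, 85.1 and 88.9 in D7G, and 16.3 and 16.6 in D7. In D7G, Col1a1 exceeded every other library while Col1a2 lay below its D3 libraries. Col5a2 and Col5a3 returned least of the 9, with D7G at 0.179 and 0.180 times the D3 level, and Col6a2 the most, at 2.59 times.

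Xist, the RNA that coats an inactive X chromosome, was among the 129 genes, with 0.897 and 1.80 CPM on D2, 3.80 and 4.01 on D3, 0.282 and 0.350 on D6, 0.599 and 0.560 in D7G, and 0.389 and 0.121 in D7. The 4 genes that met the other limits but exceeded 4 times their D3 level were Cd40, at 5.61 times, Fndc1, at 4.57 times, Ube2ql1 and Pdzd2. Cd40, a receptor of the tumour necrosis factor family, had 26.7 and 33.2 CPM in D7G, against 1.80 and 1.79 CPM in D7.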
